A study of Mus musculus with 6 samples.

Results

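Genes that Wnt signalling switches on and that in turn restrain it, together with direct targets long used as readouts of the pathway, were followed in the villus epithelium of mice with inactivated *Smad4* and activated β-catenin. They are 10 genes of the 20409 features in the count table: the secreted and membrane inhibitors *Notum*, *Wif1* and *Apcdd1*, the ubiquitin ligases *Rnf43* and *Znrf3*, the cytoplasmic inhibitors *Axin2* and *Nkd1*, and the transcription factors *Tcf7*, *Lef1* and *Sp5*. They were taken by gene symbol, and all 10 were in the table. Duodenal villi were collected from 6 mice, 3 per group, and polyadenylated RNA from each mouse was sequenced as 1 library. The question put to these genes is how the pathway's own brakes and readouts stood in villi a week after both mutations were induced.

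The double mutant mice carried a Villin-CreERT2 transgene, whose recombinase acts throughout the intestinal epithelium once tamoxifen is given, together with Smad4 fl/fl and 1 Ctnnb1 allele with exon 3 floxed, on a background enriched for C57BL6. They received tamoxifen at 0.05 g/kg by intraperitoneal injection on 4 consecutive days, and villi were taken at day 7. The wild-type mice were littermates that were not injected, so genotype and tamoxifen cannot be told apart in this comparison. Each group held 2 females and 1 male, matched in age, and the age itself is not given in the sources used here. The villi were shaken off the duodenum in EDTA and held back on a filter, which enriches epithelium without sorting it, and RNA with an integrity number above 4 was accepted for sequencing. The labels number the mice within each group, and each number stands for a different mouse.

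Wnt ligands bind Frizzled and LRP receptors and release β-catenin from a destruction complex built on Axin and APC, after which β-catenin joins TCF/LEF factors on DNA. Several of the genes then induced act backwards on the pathway, at the ligand, at the receptor or at the destruction complex, and their transcripts are therefore read as a measure of signalling. In the small intestine the pathway maintains the stem cells of the crypt and is normally low on the villus. Exon 3 of *Ctnnb1* encodes the residues whose phosphorylation marks β-catenin for destruction, so its removal activates the pathway below the receptors.

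The sequence just upstream of the start site is shown for the 3 members with the highest levels per length, since TCF/LEF factors read DNA directly and 1 of these 3 genes was called higher in the double mutant. The sequences are from RefSeq on GRCm38.p6, read 5′ to 3′ on the strand of the gene, and each covers 250 bases before an annotated start, with capitals for a match to the core TCF/LEF motif (CTTTGAA or CTTTGAT, searched on both strands).
*Sp5*, chr2:70474673-70474922, plus strand: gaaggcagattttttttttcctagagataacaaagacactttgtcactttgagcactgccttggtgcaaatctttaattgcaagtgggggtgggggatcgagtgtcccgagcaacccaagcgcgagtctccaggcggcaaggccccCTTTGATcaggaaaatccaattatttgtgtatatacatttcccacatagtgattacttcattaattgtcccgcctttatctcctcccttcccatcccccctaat
*Axin2*, chr11:108920099-108920348, plus strand: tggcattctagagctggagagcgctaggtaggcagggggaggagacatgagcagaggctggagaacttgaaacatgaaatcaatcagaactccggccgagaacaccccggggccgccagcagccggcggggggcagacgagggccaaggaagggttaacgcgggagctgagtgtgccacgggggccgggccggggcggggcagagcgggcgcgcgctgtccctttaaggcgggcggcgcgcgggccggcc
*Rnf43*, chr11:87662837-87663086, plus strand: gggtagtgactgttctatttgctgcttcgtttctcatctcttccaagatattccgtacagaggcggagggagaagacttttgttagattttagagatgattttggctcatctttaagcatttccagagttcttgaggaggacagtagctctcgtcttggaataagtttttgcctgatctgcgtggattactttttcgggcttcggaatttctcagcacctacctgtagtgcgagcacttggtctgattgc
The promoter windows used here matched 7 of the members, with 12 starts in all, and *Apcdd1*, *Notum* and *Znrf3* were not matched. Of the matched members *Sp5* was the only one that held the motif, whose first base lay at position -104 from the start, on the plus strand. Across all 32851 promoters of the same length, 7.48% held the motif. The palindrome bound by SMAD proteins, GTCTAGAC, was in none of the 12 windows and in 0.167% of all promoters. The GC-rich SMAD sequence GGCGCC was in 4 of the 12 windows, 2 overlapping windows at *Lef1* and 2 separate windows at *Tcf7*, and in 9.59% of all promoters. Those 4 windows were 64.4% to 76% G and C, against a median of 52.4% over all promoters. This difference was not accounted for. These matches describe letters in short windows, and the absence of a match says only that the letters are not there.

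Between 19678507 and 26337318 counts per mouse were assigned to the features of the table. The smallest level this depth can show, set at 3 counts, lay between 0.114 and 0.152 CPM, and this floor covers counting error only because the reads carry no molecular identifiers. Levels are given as CPM (each gene's counts relative to the library total, scaled by edgeR's TMM factors) and, where genes are compared with each other, as CPM per kb of exon. *Smad4* stood at 119.8, 180.1 and 144.5 CPM in the wild-type mice and at 26.1, 36.8 and 32.1 CPM in the double mutant mice, a log2 fold change of -2.22 (SE 0.187, adjusted p = 0.000145). *Ctnnb1* was at 931.7 ± 53.6 and 841.1 ± 79.7 CPM (SD, n = 3), and counts per gene do not show the loss of an exon. Of 12 markers of villus epithelium 5 fell and 1 rose, and their summed level was 42250 to 47240 CPM in the wild-type mice and 27260 to 29490 CPM in double mutant mice. The first wild-type mouse stood apart from the other two. Its summed goblet cell markers were at 125.4 CPM against 11620 and 11040 CPM, its Paneth cell markers at 24.0 CPM against 971.0 and 1580 CPM, and its crypt cell markers at 17.0 CPM against 86.2 and 107.7 CPM. The double mutant mice were at 4669 to 5065 CPM for goblet and 162.0 to 258.5 CPM for Paneth cell markers. Without the first wild-type mouse 5 of 8 goblet and 3 of 7 Paneth cell markers were called lower, against 0 and 1 with all mice. Of each list 1 was then called higher, against 1 and 0 with all mice. Without this mouse the count of members called was still 3 higher and 1 lower.

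Of the 10 members, 7 passed the filter on low counts and were tested among 13346 genes, and 3 (*Nkd1*, *Wif1* and *Lef1*) did not pass. *Tcf7*, *Znrf3* and *Rnf43* rose in double mutant villi, and *Apcdd1* fell. *Axin2*, *Sp5* and *Notum* did not pass the test at an adjusted p of 0.05. Over all genes tested, 19.7% were called higher and 17.0% lower, so called changes in either direction covered 36.8% of the genes tested, and a single called gene is a common event here. In 3 of the 7 tested members every double mutant mouse lay above every wild-type mouse, and in 1 every double mutant mouse lay below, against 28.1% and 24.2% of all genes tested (52.4% in either direction). Among the 3 members not tested, *Nkd1* was also above, and *Wif1* was below with TMM scaling but not with library size alone. In bulk epithelium, fewer cells that express a gene and less of its RNA per cell cannot be told apart.

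**Figure D1:**
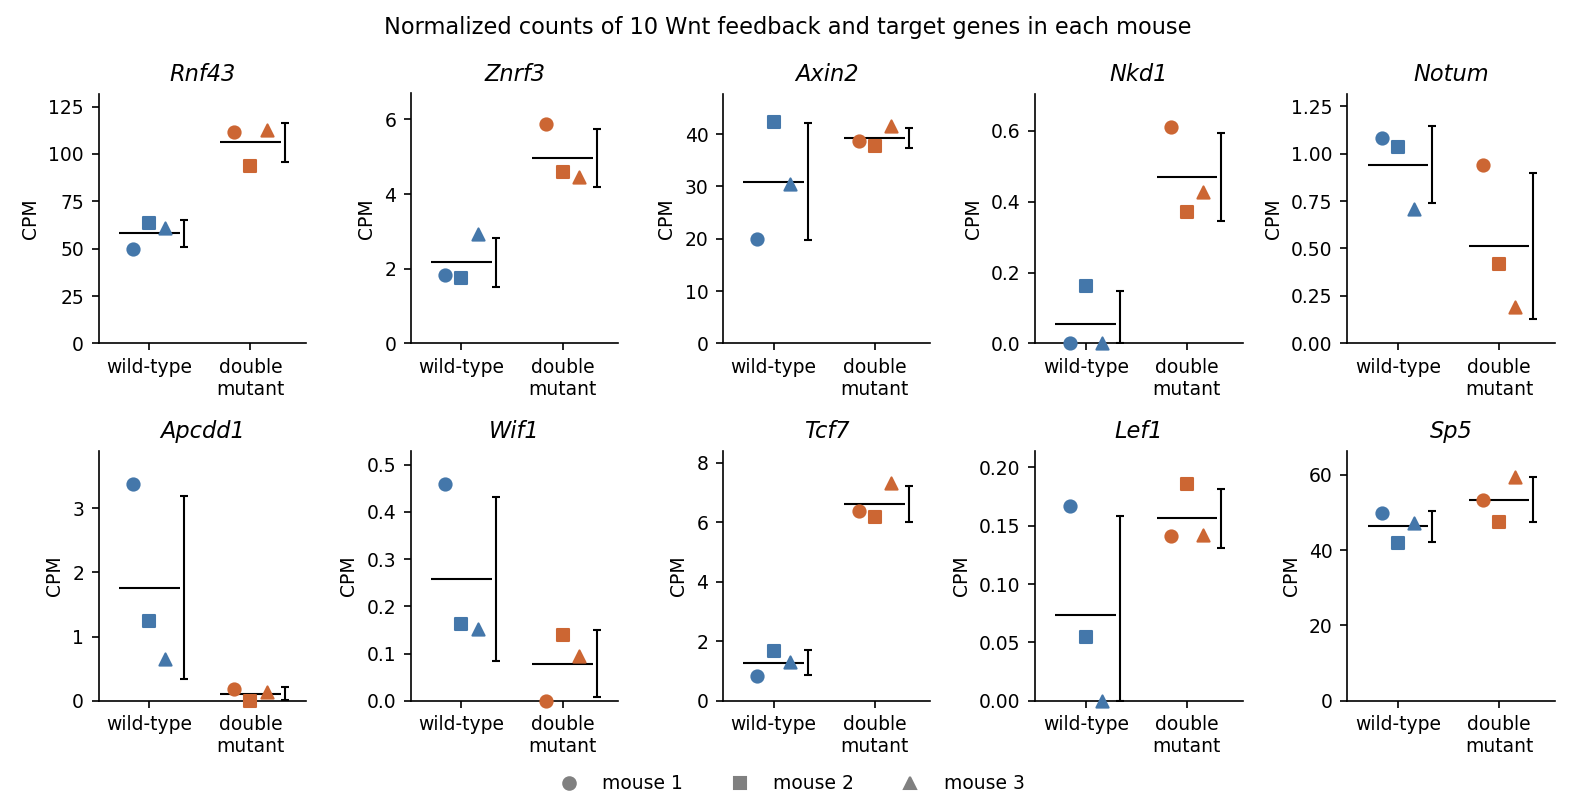
Normalized counts (CPM, linear axes that differ between panels) of the 10 members in each mouse, with wild-type in blue and double mutant in orange. Horizontal lines are group means and bars 1 SD, cut at 0 where the SD exceeds the mean. The groups are apart for *Rnf43*, *Znrf3*, *Nkd1*, *Tcf7* and *Apcdd1*, and overlap for *Axin2*, *Notum*, *Lef1* and *Sp5*. For *Wif1* they are apart with TMM scaling, as plotted, but not with library size alone.

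The ligases that strip Frizzled receptors from the cell surface were both higher in the double mutant. *Rnf43* (ENSMUSG00000034177, chr11:87476224-87549041 on mm9, 11 merged exons) marks Frizzled for removal and is itself countered by R-spondin and its LGR receptors. It was at 50.1, 63.3 and 60.7 CPM in the wild-type mice and at 111.7, 93.9 and 112.5 CPM in the double mutant mice. The lowest double mutant mouse lay well above the highest wild-type mouse. The log2 fold change was 0.87 (SE 0.132, 95% interval 0.57 to 1.17, adjusted p = 0.00162), which is a 1.83-fold rise. Leaving out each mouse in turn gave 0.77 to 0.95, and every one of these fits called the gene.

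*Znrf3* (ENSMUSG00000041961, chr11:5176327-5344850), the close relative of *Rnf43*, was far scarcer. Its levels were 1.83, 1.74 and 2.93 CPM in wild-type villi and 5.87, 4.59 and 4.46 CPM in double mutant villi. The groups did not overlap, and the first double mutant mouse was the highest of the 6. This was a log2 fold change of 1.20 (SE 0.294, 95% interval 0.53 to 1.87, adjusted p = 0.0135), a 2.29-fold rise. The call was lost without the first double mutant mouse, where the log2 fold change was 1.07 and the adjusted p was 0.0517. Per kb of exon, *Rnf43* exceeded *Znrf3* by 33.8 ± 9.48 times in wild-type and by 26.0 ± 3.90 times in double mutant mice (SD, n = 3), a ratio that overlapped between the groups (exact two-sided permutation p = 0.2, where the smallest p possible with 3 mice against 3 is 0.1).

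*1110028F11Rik*, a processed transcript annotated on the same strand within the span of *Rnf43* but with no shared exon, had 14, 13 and 30 counts in wild-type against 107, 74 and 110 counts in double mutant mice. It was looked up because it overlaps *Rnf43*, and it is no member. *Lgr4*, an R-spondin receptor that opposes the ligases, also rose, from 91.7 ± 18.9 to 145.8 ± 27.5 CPM (SD, n = 3; log2 fold change 0.67, SE 0.184, adjusted p = 0.0217). The ratio of *Lgr4* to *Rnf43* counts was 1.58 ± 0.190 in wild-type and 1.37 ± 0.152 in double mutant mice (SD, n = 3), with overlapping groups (exact permutation p = 0.3).

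*Axin2*, the scaffold of the destruction complex and the most widely used readout of β-catenin activity, did not pass the test. The gene (ENSMUSG00000000142, chr11:108781663-108812097) was at 19.9, 42.3 and 30.4 CPM in the wild-type mice and at 38.6, 37.8 and 41.5 CPM in the double mutant mice. The second wild-type mouse was the highest of all 6, and the double mutant mice lay close together inside the wild-type range. The coefficient of variation was 36.3% among wild-type and 4.96% among double mutant mice. The log2 fold change was 0.35 (SE 0.240, 95% interval -0.20 to 0.90, adjusted p = 0.288), so the interval leaves room for no rise and for a rise close to that of *Rnf43*. Without the second wild-type mouse the log2 fold change was 0.64 and passed (adjusted p = 0.0449), and without the first it was 0.11 (adjusted p = 0.612). The ratio of *Axin2* to its paralogue *Axin1* per kb was 0.343, 0.706 and 0.512 in wild-type and 0.690, 0.637 and 0.756 in double mutant mice, with overlapping groups (exact permutation p = 0.3). *Axin2* shares 209 bases of exon with *Gm11670* on the opposite strand, which had at most 4 counts in any mouse. The strand setting of the counting is not given in the sources used here.

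The 5 tested genes whose log2 CPM, centred on the mean of the 6 mice, lay closest to that of *Axin2* were *Usp11*, *Pde3b*, *Agt*, *Gm8355* and *Eif2s3x*. Their root-mean-square distances from *Axin2* were 0.0883 to 0.118 on the log2 scale over 6 mice, against a median of 0.511 over all other tested genes. They were chosen for this likeness, so their low level in the first wild-type mouse and their lack of a call follow from the choice.

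*Nkd1* (ENSMUSG00000031661, chr8:91045243-91118786), an inhibitor that binds Dishevelled, was almost absent from wild-type villi, with 0, 3 and 0 counts, and had 13, 8 and 9 counts in double mutant villi. All 3 double mutant mice lay above the wild-type mice, but the gene did not pass the filter on low counts. Pooled over mice, the ratio was 9.73 (exact 95% interval 3.02 to 49.8, which covers counting error only). The exact permutation p of the levels was 0.1, the smallest this design allows. In the fit with no filter the log2 fold change was 3.09 and its adjusted p was 0.0581, just short of the threshold.

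Of the 3 members grouped as secreted and membrane inhibitors, *Notum*, *Wif1* and *Apcdd1*, 1 was called, and it fell. *Apcdd1* (ENSMUSG00000071847, chr18:63081981-63112849), a membrane glycoprotein that can bind Wnt and LRP5, had 81, 23 and 13 counts in the wild-type mice and 4, 0 and 3 counts in the double mutant mice. In CPM these are 3.37, 1.25 and 0.657 against 0.188, 0 and 0.142, so the double mutant mice were at or near the floor. The first wild-type mouse was the highest. Its log2 fold change was -3.95 (SE 0.902, 95% interval -6.01 to -1.89, adjusted p = 0.0103). In size it was the largest of the 7 tested members, and 2.26% of all genes tested were called lower with a log2 fold change of at least 2 in size. Without the first wild-type mouse it was -3.05 (adjusted p = 0.0148). The pooled ratio of double mutant to wild-type was 0.0582 (exact 95% interval 0.0229 to 0.124, counting error only).

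*Notum* (ENSMUSG00000042988, chr11:120515102-120522489), the secreted enzyme that removes the lipid Wnt needs for binding, was at 1.08, 1.03 and 0.708 CPM in the wild-type mice and at 0.939, 0.417 and 0.190 CPM in double mutant mice. The groups overlapped through the first double mutant mouse. Its log2 fold change was -0.86 (SE 0.579, 95% interval -2.18 to 0.46, adjusted p = 0.276). Without the first double mutant mouse it was -1.60 (adjusted p = 0.0871), and leaving out each of the others gave -1.03 to -0.47, none of them called. *Notum* shares 210 bases of exon with *Gm11768* and 708 bases with *4732444A12Rik*, both on the opposite strand, and the latter had at most 6 counts in any mouse. *Wif1* (ENSMUSG00000020218, chr10:120471016-120537706), a secreted protein that binds Wnt directly, had 11, 3 and 3 counts in wild-type against 0, 3 and 2 counts in double mutant mice and was not tested. With the TMM factors the groups were apart, at 0.152 against 0.139 CPM for the third wild-type and the second double mutant mouse. Both had 3 counts, which by library size alone are 0.146 and 0.147 CPM, so the groups then overlapped. The pooled ratio was 0.286 (exact 95% interval 0.0825 to 0.808, counting error only). The log2 ratio of mean CPM was -1.72 with all mice. It was -1.01 without the first wild-type mouse and -2.44 without the second double mutant mouse.

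Markers of other cell types were read beside these scarce inhibitors. Of 14 mesenchymal markers, 10 were in the table and 3 of these were tested, none of which was called by edgeR, DESeq2 or limma-voom, nor at an unadjusted p under 0.05. The summed level of the 10 was 6.12, 8.98 and 11.1 CPM in the wild-type mice and 14.4, 10.7 and 7.78 CPM in double mutant mice. *Col1a2*, *Col3a1*, *Pdgfra* and *Myh11* were at 0 in every wild-type mouse. In the double mutant mice the first 3 of these reached at most 0.141 CPM, while the smooth muscle genes *Myh11*, *Acta2* and *Des* were at 2.21, 1.88 and 1.64 CPM in the first mouse and at most 0.371 CPM in the others. *Apcdd1* and *Wif1*, both highest in the first wild-type mouse, were thus high in a library in which goblet, Paneth and crypt cell markers were low, and the part of that library's makeup in their levels was not tested.

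*Tcf7* had the largest called rise among the members. The gene (ENSMUSG00000000782, chr11:52065873-52096681) encodes TCF1, a partner of β-catenin on DNA that is also abundant in T lymphocytes. Its levels were 0.833, 1.69 and 1.31 CPM in the wild-type mice and 6.38, 6.17 and 7.31 CPM in double mutant mice. The lowest double mutant value was several times the highest wild-type value. The log2 fold change was 2.38 (SE 0.304, 95% interval 1.69 to 3.07, adjusted p = 0.000753), a 5.21-fold rise, and leaving out each mouse gave 2.14 to 2.63. *Tcf7* was the only member called higher with a log2 fold change of at least 2, a class that held 3.04% of all genes tested. No marker of T lymphocytes was called higher beside it. Of 16 markers 11 were tested, 2 fell (*Ptprc* by 1.29 and *Cd8a* by 0.92 on the log2 scale) and none rose by edgeR, DESeq2 or limma-voom or at an unadjusted p under 0.05, and their summed level was 94.1 to 190.0 CPM in the wild-type mice and 82.0 to 124.3 CPM in double mutant mice. DESeq2 called 5 of these markers lower, as many as had an unadjusted p under 0.05 in edgeR. Without the first wild-type mouse 8 were called lower, and 1 was without the second or the third wild-type mouse or without the first or the second double mutant mouse.

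Within the TCF/LEF family the makeup shifted toward *Tcf7*. *Tcf7* took 4.37%, 5.96% and 5.17% of the family's counts per kb in wild-type mice and 21.4%, 18.2% and 20.8% in double mutant mice (5.17 ± 0.793% and 20.2 ± 1.71%, SD, n = 3). The groups did not overlap, and the exact permutation p was 0.1, the smallest possible. *Tcf7l2*, which encodes TCF4, the main family member of intestinal epithelium, remained the most abundant in every mouse, at 94.6 ± 0.954% and 79.3 ± 1.73%. Its own level was 71.8 ± 13.4 CPM in the wild-type mice and 81.8 ± 8.0 CPM in double mutant mice (log2 fold change 0.19, SE 0.155, adjusted p = 0.373).

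**Figure D2:**
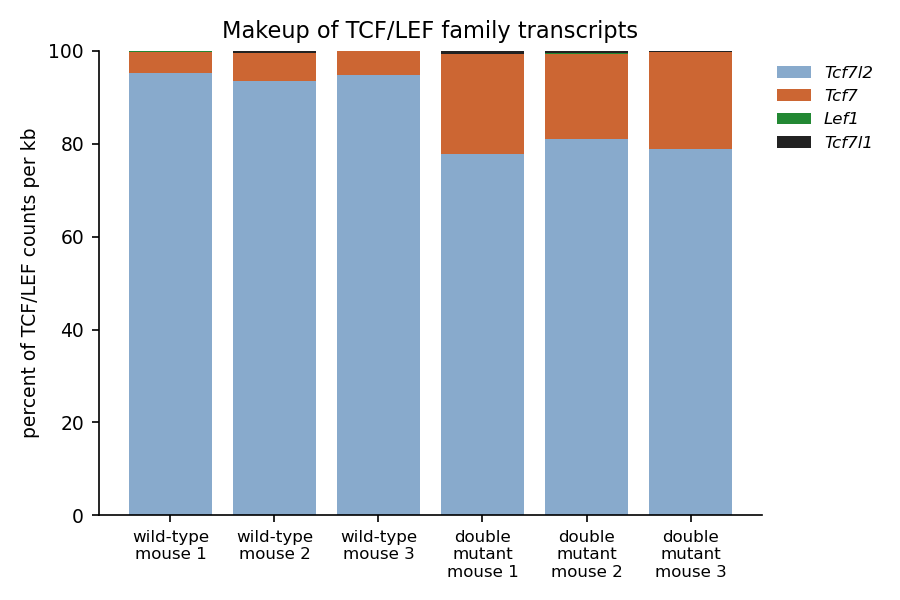
Share of each TCF/LEF gene in the family's counts per kb of exon (percent, linear axis) in each of the 6 mice. *Tcf7* takes 4.37% to 5.96% in wild-type mice and 18.2% to 21.4% in double mutant mice, and *Tcf7l2* takes nearly all of the rest. *Lef1* is too scarce to be seen.

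*Lef1* (ENSMUSG00000027985, chr3:130813389-130927274), another TCF/LEF factor and a common Wnt target in tumours, stayed near the floor in both groups, with 4, 1 and 0 counts in wild-type against 3, 4 and 3 counts in double mutant mice. The pooled ratio was 1.95, and its exact interval of 0.606 to 7.25 includes 1. The log2 ratio of mean CPM was 1.08 with all mice, 2.52 without the first wild-type mouse and 0.50 without the third. A difference in *Lef1* was not detectable at this depth. *Lef1* made up 0.115 ± 0.148% of TCF/LEF counts per kb in wild-type and 0.153 ± 0.0228% in double mutant mice (SD, n = 3).

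*Sp5* (ENSMUSG00000075304, chr2:70312980-70315786), a zinc-finger factor of the Sp family that occupies many Wnt target genes, was the most abundant member per kb in both groups. It was at 50.0, 41.8 and 47.2 CPM in the wild-type mice and at 53.2, 47.6 and 59.5 CPM in double mutant mice. The groups overlapped, since the second double mutant mouse lay below the first wild-type mouse. The log2 fold change was 0.20 (SE 0.128, 95% interval -0.09 to 0.50, adjusted p = 0.242), and the upper bound of the interval lies below the lower bound for *Rnf43*. With library size alone in place of TMM it was 0.40 and passed (adjusted p = 0.0377), a setting in which the median of all genes tested was itself raised to 0.215.

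**Figure D3:**
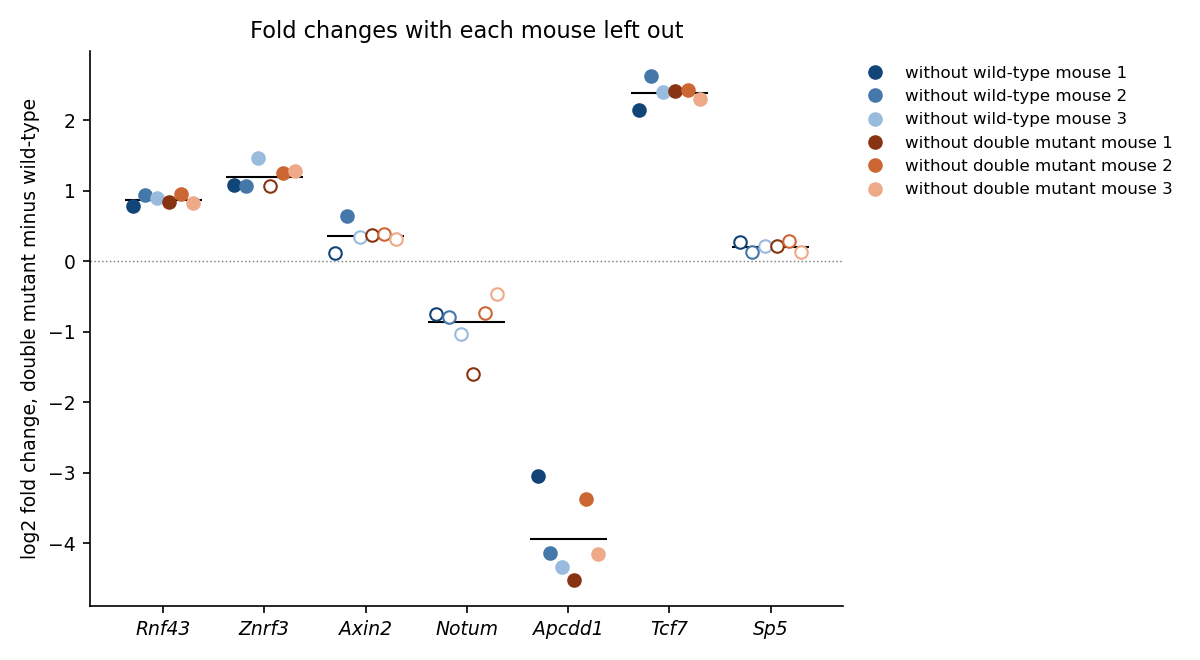
Log2 fold change (double mutant minus wild-type, linear axis) of the 7 tested members after leaving out each mouse in turn. Horizontal lines are the values with all 6 mice, and filled points have an adjusted p under 0.05. *Znrf3* loses its call without the first double mutant mouse, *Axin2* gains one without the second wild-type mouse, and *Apcdd1* moves from -3.95 to -3.05 without the first wild-type mouse.

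The members spanned a wide range of abundance. In wild-type villi the mean levels in CPM per kb of exon were 22.1 for *Sp5*, 8.85 for *Rnf43* and 5.60 for *Axin2*. The ranges of *Rnf43* and *Axin2* overlapped by a hair between mice. Within each wild-type mouse *Rnf43* was the higher, at 7.63, 9.66 and 9.25 against 3.62, 7.68 and 5.52 CPM per kb. Next came *Apcdd1* at 0.629, *Tcf7* at 0.458, *Notum* at 0.391 and *Znrf3* at 0.275 CPM per kb, each of which overlapped with its neighbour in the order. *Wif1* was at 0.106, *Nkd1* at 0.0122 and *Lef1* at 0.00851 CPM per kb, and the last pair also overlapped. In double mutant villi the same 3 genes led in the same order, at 25.4, 16.2 and 7.14 CPM per kb, and no 2 of these 3 genes overlapped. *Tcf7* followed at 2.37 and *Znrf3* at 0.630 CPM per kb, both apart from their neighbours. *Notum* at 0.214 and *Nkd1* at 0.105 CPM per kb overlapped, and *Apcdd1* at 0.0393, *Wif1* at 0.0321 and *Lef1* at 0.0180 CPM per kb could not be ordered.

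Together the 10 genes took 0.0116%, 0.0143% and 0.0138% of all counts in the wild-type mice and 0.0236%, 0.0202% and 0.0241% in the double mutant mice, which did not overlap (exact permutation p = 0.1, the smallest possible). *Rnf43*, *Sp5* and *Axin2* supplied 95.3 ± 1.20% of these counts in wild-type against 93.9 ± 0.432% in double mutant mice (SD, n = 3), so the sum says little about the other members.

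The members were then set beside other genes of the pathway, grouped by role, for which the median log2 fold change over all 13346 genes tested, 0.02, is the reference. Among 19 other secreted and membrane antagonists 12 were in the table and 6 were tested, with 1 higher, none lower and a median of 0.44. The gene called was *Igfbp4*, an IGF-binding protein that also inhibits Wnt at its receptors, which went from 1.15 ± 0.562 to 9.20 ± 1.44 CPM (SD, n = 3; log2 fold change 3.02, SE 0.385, adjusted p = 0.000747). At an unadjusted p under 0.05, 1 of the 6 was lower (*Tpbg*, which encodes a membrane glycoprotein), DESeq2 and limma-voom called none lower, and with RLE size factors or without the second wild-type mouse 1 was called lower. With library size alone 2 were called higher. *Igfbp4*, the called gene of this list, and *Apcdd1*, the called gene among the secreted and membrane members, thus moved in opposite directions.

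Of 14 other intracellular inhibitors 13 were in the table and 9 were tested, with none higher, 5 lower and a median of -0.40. *Dact2*, a Dishevelled-binding inhibitor, had the largest fall, from 44.6 ± 7.03 to 19.0 ± 3.85 CPM (SD, n = 3; log2 fold change -1.23, SE 0.183, adjusted p = 0.00149). *Ctnnbip1*, which blocks the binding of β-catenin to TCF, fell by 0.69 on the log2 scale, and the kinase genes *Gsk3a*, *Gsk3b* and *Csnk1a1* of the destruction complex were the other genes called lower. The number called lower went down to 3 without the second or the third wild-type mouse and without the second or the third double mutant mouse. No gene of this list was called higher by DESeq2 or limma-voom or had an unadjusted p under 0.05 for a rise, and 1 was called higher with library size alone.

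Of 19 relatives and cofactors of the transcription factors 15 were in the table and 13 were tested, with 1 higher, 5 lower and a median of -0.17. *Bcl9*, a coactivator that binds β-catenin, rose by 1.59 on the log2 scale (SE 0.231, adjusted p = 0.00149), from 23.7 ± 7.03 to 71.3 ± 11.2 CPM (SD, n = 3). *Tle3*, a corepressor of TCF factors, fell from 146.1 ± 33.4 to 46.2 ± 9.15 CPM (SD, n = 3; log2 fold change -1.66, SE 0.199, adjusted p = 0.000635), and the other genes called lower were *Sp1*, *Sp2*, *Sp3* and *Sp4*, relatives of *Sp5*. The number called lower was 1 without the second wild-type or the second double mutant mouse and 2 without the third wild-type or the third double mutant mouse. Of 17 Wnt and R-spondin receptors 14 were in the table and 11 were tested, with 2 higher, 4 lower and a median of -0.16. *Lgr4* had the largest rise, *Ryk*, which encodes a Wnt co-receptor, was the other called higher (log2 fold change 0.61, SE 0.106, adjusted p = 0.00292), and *Fzd1* had the largest fall (log2 fold change -1.60, SE 0.509, adjusted p = 0.0379). *Fzd4*, *Fzd7* and *Lrp5* were the other receptors called lower. The number of receptors called lower went down to 1 without the second wild-type or the second double mutant mouse and to 2 without the third double mutant mouse, and the number called higher went down to 1 without the third wild-type mouse, the first double mutant mouse or the third double mutant mouse.

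The list nearest to the members is that of 19 other Wnt target genes of the intestine, of which 18 were in the table and all 18 were tested. It had 9 genes higher, 1 lower and a median log2 fold change of 1.80. *Myc*, a proliferation factor, had the largest rise, from 0.417, 1.90 and 2.53 CPM in wild-type to 18.6, 15.5 and 21.0 CPM in double mutant mice (log2 fold change 3.53, SE 0.523, adjusted p = 0.00234). *Tnfrsf19*, *Ephb2*, *Ccnd1*, *Cdca7*, *Lgr5*, *Cd44*, *Sox9* and *Smoc2* were the others called higher. *Prox1*, a homeobox factor, fell from 1.28 ± 0.0842 to 0.141 ± 0.124 CPM (SD, n = 3; log2 fold change -3.14, SE 0.594, adjusted p = 0.00433). Without the first double mutant mouse 6 of the targets were called higher. Whether these targets as a list moved more than the members was not tested, and the values are set side by side. Crypt cell markers moved in the same direction, and 5 of 8 were called higher. Their summed level was 17.0 to 107.7 CPM in wild-type and 159.6 to 242.1 CPM in double mutant mice. Those called were *Lgr5*, *Smoc2* and the proliferation genes *Mki67*, *Top2a* and *Ccnb1*, while *Olfm4*, *Gkn3* and *Ascl2* were not. *Olfm4* was a large part of the sum, at 5.17, 50.4 and 66.8 CPM in wild-type and 132.6, 92.0 and 80.2 CPM in double mutant mice (adjusted p = 0.319). *Lgr5*, *Smoc2* and *Ascl2* belong to both lists. The number of crypt cell markers called higher was 1 without the first and 2 without the second double mutant mouse. Their part in the levels of *Tcf7*, *Znrf3* and *Rnf43* was not tested.

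**Figure D4:**
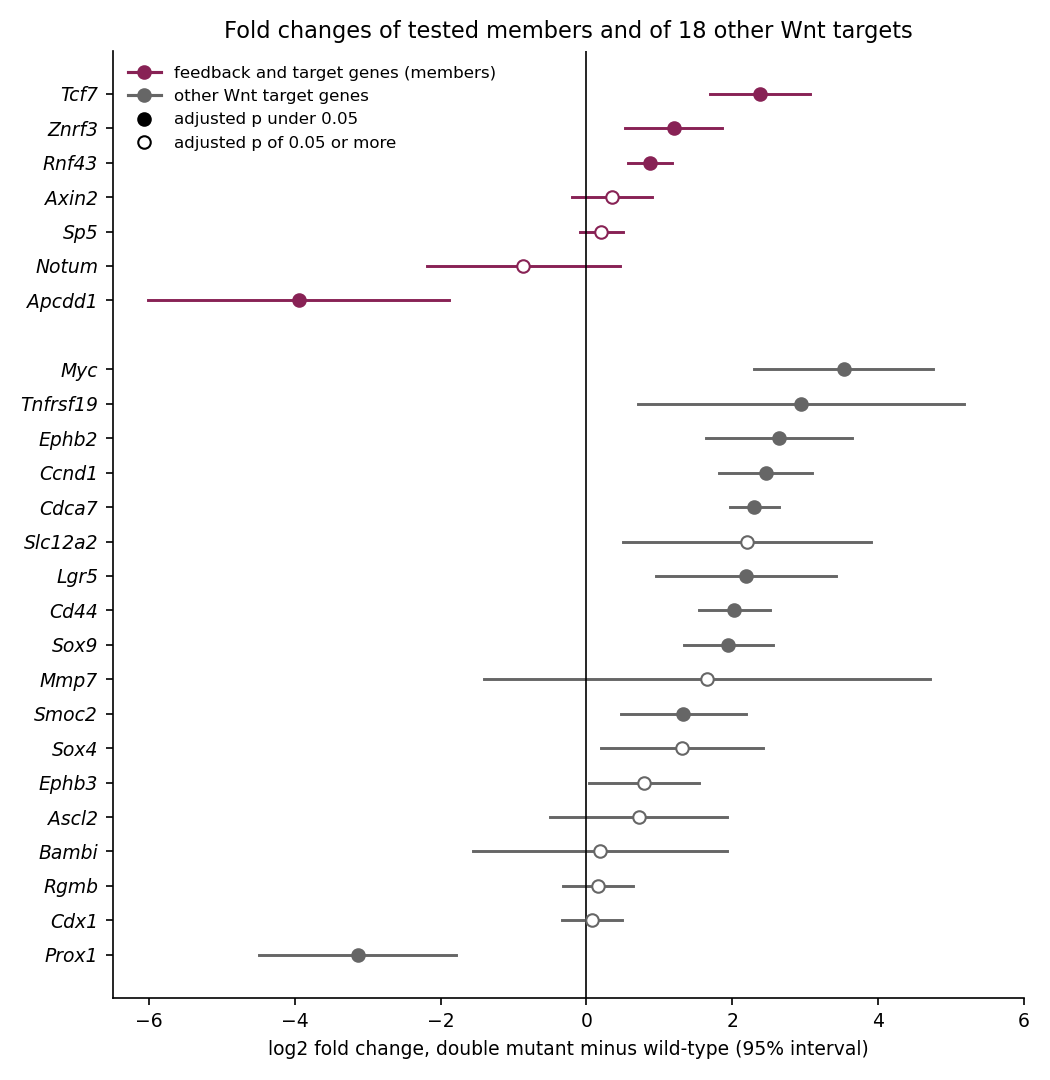
Log2 fold change (double mutant minus wild-type, linear axis) of the 7 tested members and of 18 other Wnt target genes, with 95% intervals from edgeR. Filled points have an adjusted p under 0.05. Of the called members, *Tcf7*, *Znrf3* and *Rnf43* lie to the right of 0 and *Apcdd1* to the left. Of the 18 other targets 9 are called higher, led by *Myc* at 3.53.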

How the data were processed

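Duodenal villus RNA of 3 double mutant and 3 wild-type mice was measured by RNA sequencing, with groups taken from the sample labels. Reads of 150 bp were aligned by the authors to mm9 with HISAT2 and counted per gene with featureCounts, and the authors deposited raw counts, with 1 column per mouse, neither normalized nor pooled. Gene symbols, positions and exon lengths came from the GENCODE annotation of mm9, which held 20032 of 20073 Ensembl identifiers. The other 336 features are numbered transcripts without a symbol.

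Everything after the counts was computed with R 4.3.3, edgeR 4.0.16, DESeq2 1.42.0 and limma 3.58.1. Genes were kept by filterByExpr (13346 genes), scaled by TMM, fitted with glmQLFit (robust), tested with glmQLFTest and adjusted by Benjamini-Hochberg over all genes tested. An adjusted p under 0.05 was called. Genes too scarce to test are given as pooled counts with an exact conditional interval. Single values were compared by exact two-sided permutation over mice, which cannot go below 0.1. For distances between genes, log2 CPM was taken with 2 prior counts. The fits were first tested on simulated data.

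The text names all 10 members, *Smad4* and *Ctnnb1*, the largest called rise and fall of each pathway list, and the 5 genes nearest to *Axin2*. Other called genes of a list, overlapping transcripts and the relatives *Axin1* and *Tcf7l2* were named after their values were seen. So were *Tpbg*, *Ascl2*, *Olfm4*, *Gkn3* and the mesenchymal markers. The members, the lists and this rule were chosen with earlier results of these data known. Of 159 list genes 139 were in the table, and the rest were not analysed here. Alternatives were RLE factors, library size alone, DESeq2, limma-voom, 2 other filters, a block for replicate number, sex as a covariate, a log2 fold threshold of 2, and each mouse left out in turn. Promoter windows on GRCm38.p6 were used for sequence only and were not joined to mm9 positions.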

Additional observations from a re-analysis of the deposited data

How the results depend on the processing

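Of 98 refits of the 7 tested members, 95 kept their direction and their side of the threshold, 1 lost a call, 2 gained one and none reversed. The call lost was *Znrf3* without the first double mutant mouse (log2 fold change 1.07, adjusted p = 0.0517). The calls gained were *Axin2* without the second wild-type mouse (0.64, adjusted p = 0.0449) and *Sp5* with library size alone (0.40, adjusted p = 0.0377). Over their 14 refits adjusted p-values ran from 0.00271 to 0.0517 for *Znrf3*, from 0.0449 to 0.612 for *Axin2* and from 0.0377 to 0.556 for *Sp5*. *Ctnnb1*, at -0.15 and not called, was at 0.05 (0.0462) with library size alone and not called (adjusted p = 0.790).

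With a log2 fold change of at least 2 in size also required, 1 member was called higher and 1 lower (*Apcdd1*). Over all genes 406 were then called higher and 302 lower. Over all genes 2632 were called higher and 2273 lower with TMM, and 3732 higher and 1425 lower with library size alone, where the median log2 fold change over all genes rose from 0.02 to 0.215. With library size alone the secreted and membrane antagonists had 2 genes higher and 0 lower, the intracellular inhibitors 1 gene higher and 3 lower, the relatives and cofactors of the transcription factors 2 and 2, the receptors 3 and 1, and the other Wnt targets 12 and 1.

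Same-numbered mice had correlations of 0.0224, -0.109 and 0.0123 between their deviations from the group means, so no pairing by replicate number was seen. With 3 mice per group these values cannot exclude that mice were matched across groups. With the replicate number as a block, 3 members were called higher and 1 lower, as without it, and over all genes 2084 were called higher and 1750 lower. The block left 3 intracellular inhibitors and 2 relatives and cofactors lower, and 1 receptor and 3 crypt cell markers higher.

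Depth limits *Nkd1*, *Wif1* and *Lef1*, which had at most 13 counts in any mouse, and *Apcdd1* in the double mutant, with at most 4. With no filter on low counts 3 relatives and cofactors were called lower, in place of 5, and 3 crypt cell markers higher, in place of 5. Without the second wild-type mouse *Nkd1* had no wild-type counts and no ratio was given. With 3 mice per group the p-values rest on the spread among few animals.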
